A study of Mus musculus with 6 samples.

Results

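The genes described here encode the translation initiation factors (gene names beginning Eif) and elongation factors (gene names beginning Eef) of the mouse. They were taken by name as protein-coding genes whose symbol is Eif or Eef followed by a digit. The eIF2 kinases (Eif2ak genes) and the Y-linked Eif2s3y were left out. The rule gave 63 of the 54532 genes measured. The rule itself used no measured value, but it was set with earlier results of these data known.

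RNA-seq was done on 3 libraries labelled aged and 3 labelled young, from lung of mice of 18 and 3 months. The submitters describe tissue rinsed in saline before RNA extraction. The sources used here name no strain, sex or genotype and do not say how many animals stand behind each library. The p-values below therefore reflect only how far these libraries differ among themselves, a spread that may be technical. Expression is given as FPKM, read pairs scaled by gene length and by library size, a level per length. Levels of different genes can be compared only as far as the gene length used matches the expressed mRNA, which was not tested.

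The tissue label went against lung markers in all 6 libraries. Sftpc, the surfactant gene of alveolar type 2 cells, reached at most 0.112 FPKM and the endothelial gene Pecam1 at most 0.322 FPKM. Of the alveolar type 2, endothelial and leukocyte markers, 6 of 8, 7 of 7 and 6 of 7 stayed below 1 FPKM in every library, as did 5 of 6 club and ciliated cell markers. Among the exceptions were Napsa of the alveolar type 2 list (17.5 to 21.8 FPKM) and Cd68 of the leukocyte list (5.85 to 16.7 FPKM). Summed fibroblast markers ran from 3551 to 3707 FPKM in aged libraries and from 2839 to 3006 FPKM in young libraries, and 8 of 10 were at 10 FPKM or more throughout. Spp1 was the largest part of each sum. The fibroblast markers Dcn and Thy1 were near 0, reaching at most 0.109 FPKM for Dcn and 0.466 FPKM for Thy1. The fibroblast markers did not move one way. Spp1 (1660 to 1820 FPKM in aged and 1130 to 1310 FPKM in young libraries) and Fn1 (923 to 993 FPKM in aged and 522 to 529 FPKM in young libraries) were higher in aged libraries, whereas Col1a1 (153 to 184 FPKM in aged and 236 to 251 FPKM in young libraries), Col1a2, Col3a1 and Pdgfra were lower there. The 7 markers of dividing cells summed to 488 to 506 FPKM in aged libraries and 421 to 429 FPKM in young libraries, with Aurka and Ccnb1 among those higher in aged libraries, Mki67 lower (52.5 to 56.6 FPKM in aged and 73.9 to 77.6 FPKM in young libraries) and Top2a overlapping. Alveolar type 1 markers summed to 407 to 420 FPKM in aged libraries and 257 to 263 FPKM in young libraries, mostly from Aqp5 and from Cav1 and Pdpn, which fibroblasts also express. Kap, an androgen-regulated kidney gene, was at 0 in all aged libraries and at 116, 0 and 21.9 FPKM in young libraries 1 to 3. The part of cell makeup in the results below was not tested. In bulk RNA, fewer cells of a type and less RNA per cell cannot be told apart.

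Translation starts when eIF2 brings the initiator tRNA to the small ribosomal subunit, helped by eIF1, eIF1A, eIF3 and eIF5. The eIF4 factors bind the mRNA cap, unwind the leader and recruit the mRNA, and eIF5B joins the large subunit. During elongation eEF1A delivers aminoacyl-tRNAs, the eEF1B subunits recharge it with GTP, and eEF2 moves the ribosome along. Supply is gated at eIF2, through its kinases and its exchange factor eIF2B, and at the cap, through eIF4E-binding repressors under mTORC1. In fibroblasts, as in other dividing cells, mRNAs of elongation factors are among the most abundant.

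The members were abundant. Of the 63, 13 averaged at least 100 FPKM over the 6 libraries, 36 lay between 10 and 100, 10 between 1 and 10, and 4 below 1. The tested members had a median level of 32.9 FPKM, against 5.92 FPKM for all tested genes. Eef1a1 stood first at 2089 FPKM, followed by Eef2 at 523, Eif5a at 284, Eif4b at 248, Eef1g at 220 and Eif3h at 153 FPKM. Eif3h (153 FPKM), Eif3c (153 FPKM) and Eif1 (152 FPKM) were closer to each other than the spread between libraries of each.

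Of the 63 members, 60 passed the filter on low values, which asked for 0.5 FPKM or more in 3 or more of the 6 libraries. In a limma test on log2(FPKM + 1), with Benjamini-Hochberg adjustment over all 15197 tested genes and a threshold of 0.05, 20 members rose in aged libraries, 22 fell and 18 did not pass. The share called was 70.0%, beside 60.0% of all tested genes, 66.7% of tested protein-coding genes and 72.9% of tested genes averaging at least 10 FPKM. Over all tested genes 27.7% were higher and 32.3% lower in aged libraries. The groups did not overlap in 44 of the 60 members (73.3%), beside 66.9% of all tested genes and 74.05% of tested protein-coding genes. The count of calls was thus near the background for genes of this level. Without young libraries 1 and 3, the ones with Kap, 14 members were called higher and 17 lower, and 31 of the 42 calls were kept. The calls lost were those of Eef1akmt1, Eef1e1, Eif1, Eif1ax, Eif2b3, Eif2b5, Eif3d, Eif3j1, Eif4a3, Eif4e2 and Eif4enif1.

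The differences were small. The members' median log2 fold change was -0.05, beside -0.03 for all tested genes, and it was 0.02 after centring each library on its median. The median size of the change, whatever its sign, was 0.24 on the log2 scale in members and 0.28 in all tested genes. Called changes of at least 1.5-fold in mean FPKM were found in 5 of 60 members, Eif2d, Eif1ad, Eif2b1, Eef2kmt and Eif4e3, beside 26.2% of all tested genes. Among genes averaging at least 10 FPKM the count was 3 of 49 members (6.12%), beside 1101 of 5535 tested genes (19.9%). Changes of at least 2-fold were found in Eif2d and Eef2kmt alone, beside 11.8% of all tested genes. These shares are a description, with no test of the list.

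**Figure D1:**
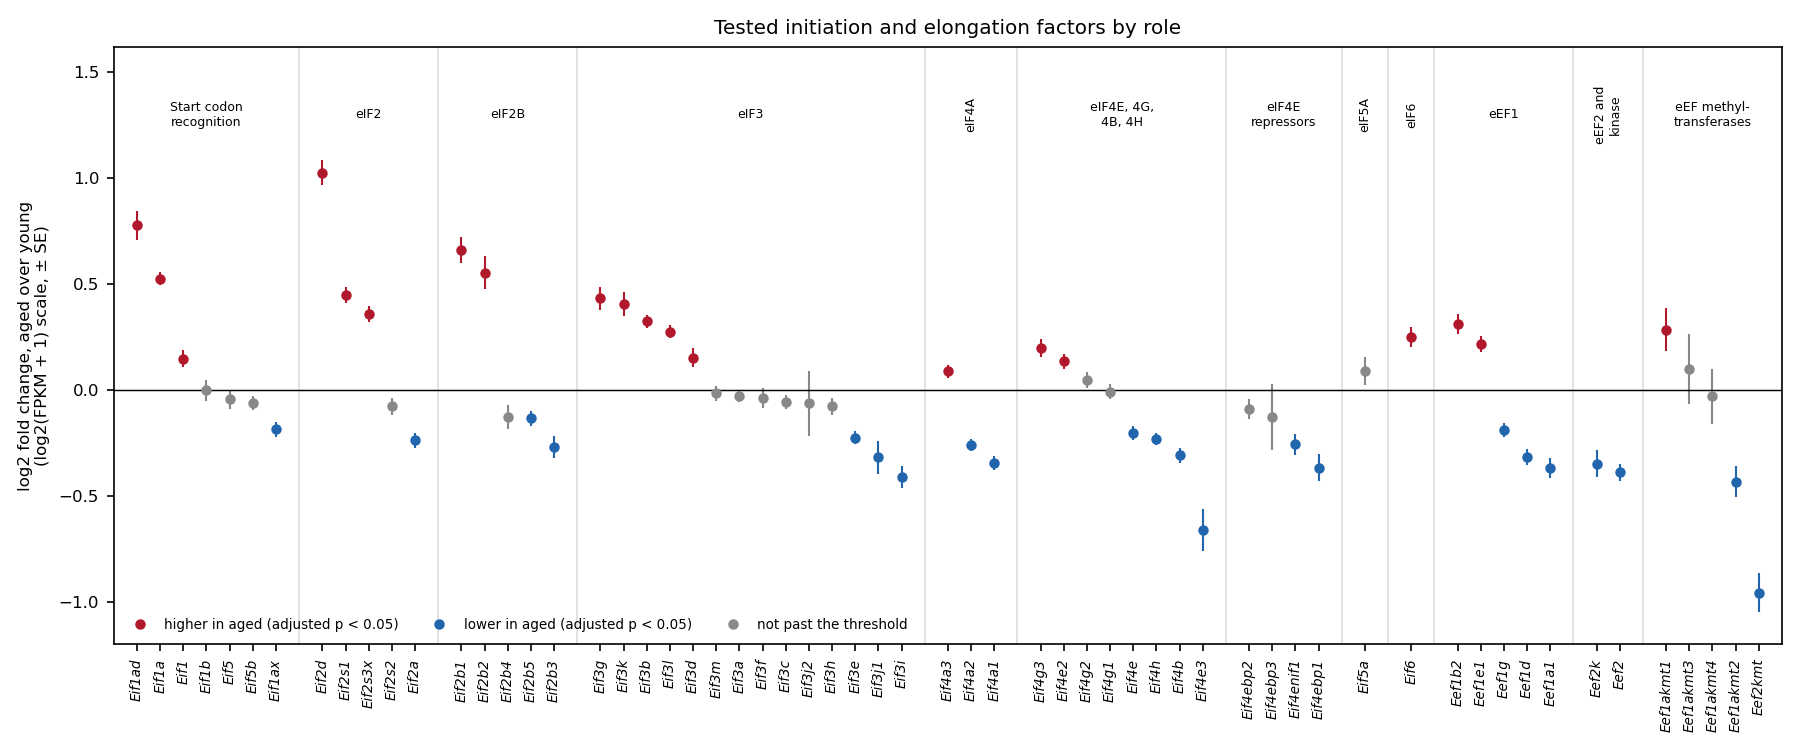
Log2 fold change of aged over young libraries, on the log2(FPKM + 1) scale with its standard error, for the 60 tested members grouped by role. Red points rose and blue points fell in aged libraries, and grey points did not pass the threshold of 0.05. Both eEF2 points are blue, eIF2, eIF2B and eIF3 each hold red and blue points, and Eif2d (1.03) and Eef2kmt (-0.96) are the extremes.

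Summed over all 63 members, expression was 5523, 5463 and 5434 FPKM in aged libraries, against 6091, 6098 and 6210 FPKM in young libraries. Every aged library lay below every young one, and the young sum was 1.12-fold the aged sum. Without Eef1a1 the means were 3650 ± 56.7 FPKM in aged libraries and 3778 ± 55.9 FPKM in young libraries (SD, n = 3 each). The initiation factors alone summed to 2757 ± 49.2 FPKM in aged libraries and 2739 ± 33.7 FPKM in young libraries, with overlap. Eef1a1 made up 33.3% ± 0.65 of the members' sum in aged libraries and 38.4% ± 0.39 in young libraries. The genes named as elongation factors, Eef1e1 among them, and the eEF2 kinase were summed as well. Their sum was 2683 ± 30.7 FPKM in aged libraries and 3359 ± 32.7 FPKM in young libraries. The lower total of the aged libraries lay with these genes.

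Of the 8 genes named as elongation factors or as the eEF2 kinase, 7 were tested, 5 fell and 2 rose. Of the 2 that rose, Eef1b2 is an elongation factor subunit, and Eef1e1 belongs to the multi-tRNA synthetase complex. Eef1a1 (chr9:78478449-78489151, minus strand, mm10), which encodes the GTPase that carries aminoacyl-tRNA, had 1832, 1789 and 1849 FPKM in aged libraries, against 2367, 2326 and 2374 FPKM in young libraries. The groups did not overlap, and Eef1a1 fell by 0.37 on the log2 scale (SE 0.05, limma adjusted p = 0.000647). It lost its call when genes were not filtered on low values (limma adjusted p = 0.0714).

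Eef2 (chr10:81176631-81182498, plus strand, mm10), the translocase, had 451, 445 and 461 FPKM in aged libraries, against 575, 599 and 605 FPKM in young libraries. All 3 aged libraries were below all young ones. The change was -0.39 on the log2 scale (SE 0.04, limma adjusted p = 0.000186), and -0.22 after quantile normalization, which gives all libraries the same distribution of values (limma adjusted p = 0.00316). Eef2k, the kinase that inhibits eEF2, averaged 6.92 ± 0.37 FPKM in aged libraries and 9.10 ± 0.70 FPKM in young libraries and fell by 0.35 (limma adjusted p = 0.00307). Both the translocase mRNA and that of its inhibitor were lower.

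The subunits of the eEF1B exchange complex did not move together. Eef1b2, the alpha catalytic subunit, had 162, 165 and 150 FPKM in aged libraries, against 123, 131 and 130 FPKM in young libraries, and rose by 0.31 (limma adjusted p = 0.00127). Eef1d, the delta catalytic subunit, fell by 0.32 to 20.96 ± 0.83 FPKM in aged libraries, against 26.3 ± 0.59 FPKM in young libraries (limma adjusted p = 0.000509). The exons of Eef1d overlap those of Naprt on the same strand over 4.269% of their length. Naprt averaged 2.675 FPKM in aged libraries and 8.895 FPKM in young libraries, in the same direction as Eef1d. The part of shared reads in the values of Eef1d was not tested. Eef1g, the structural gamma subunit, averaged 205 ± 2.68 FPKM in aged libraries and 234 ± 5.94 FPKM in young libraries and fell by 0.19 (limma adjusted p = 0.00252). Its value was -0.12 after median centring, and it did not pass after quantile normalization (-0.06, limma adjusted p = 0.159). Eef1e1, a small protein of the multi-tRNA synthetase complex, rose by 0.22 (limma adjusted p = 0.0022).

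Eef1a2, the eEF1A of muscle and neurons, had 6 reads in all aged libraries together and 0 in young ones and was not tested. No fold is given for it. Eef1a1 had 233389 reads in aged libraries and 304417 in young ones, so Eef1a2 held a very small part of the eEF1A reads. Whether that part differed between groups was not measurable at this depth.

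Of the 5 methyltransferase genes that act on elongation factors, 2 fell, 1 rose and 2 did not pass. Eef2kmt (chr16:5244152-5255983, minus strand, mm10), which methylates a lysine of eEF2, had 2.93, 2.33 and 2.59 FPKM in aged libraries, against 5.55, 6.80 and 5.73 FPKM in young libraries. The lowest young library was above the highest aged one, and the mean was 2.30-fold higher in young libraries (log2 fold change -0.96, SE 0.09, limma adjusted p = 0.000156). Its exons overlap those of Alg1 on the other strand over 17.6% of their length. Alg1 averaged 7.36 FPKM in aged libraries and 5.57 FPKM in young libraries. Whether strand was used in counting is not given, and the part of shared reads in the values of Eef2kmt was not tested. Eef1akmt2, which methylates eEF1A, fell by 0.43 to 6.78 ± 0.39 FPKM in aged libraries, against 9.52 ± 0.92 FPKM in young libraries (limma adjusted p = 0.002). Eef1akmt1 had a log2 fold change of 0.28 (limma adjusted p = 0.0448), and its call was lost under 9 alternatives, among them those without aged library 1 or 2 or any 1 young library (limma adjusted p from 0.054 to 0.127). Its value was 0.18 without aged library 1.

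**Figure D2:**
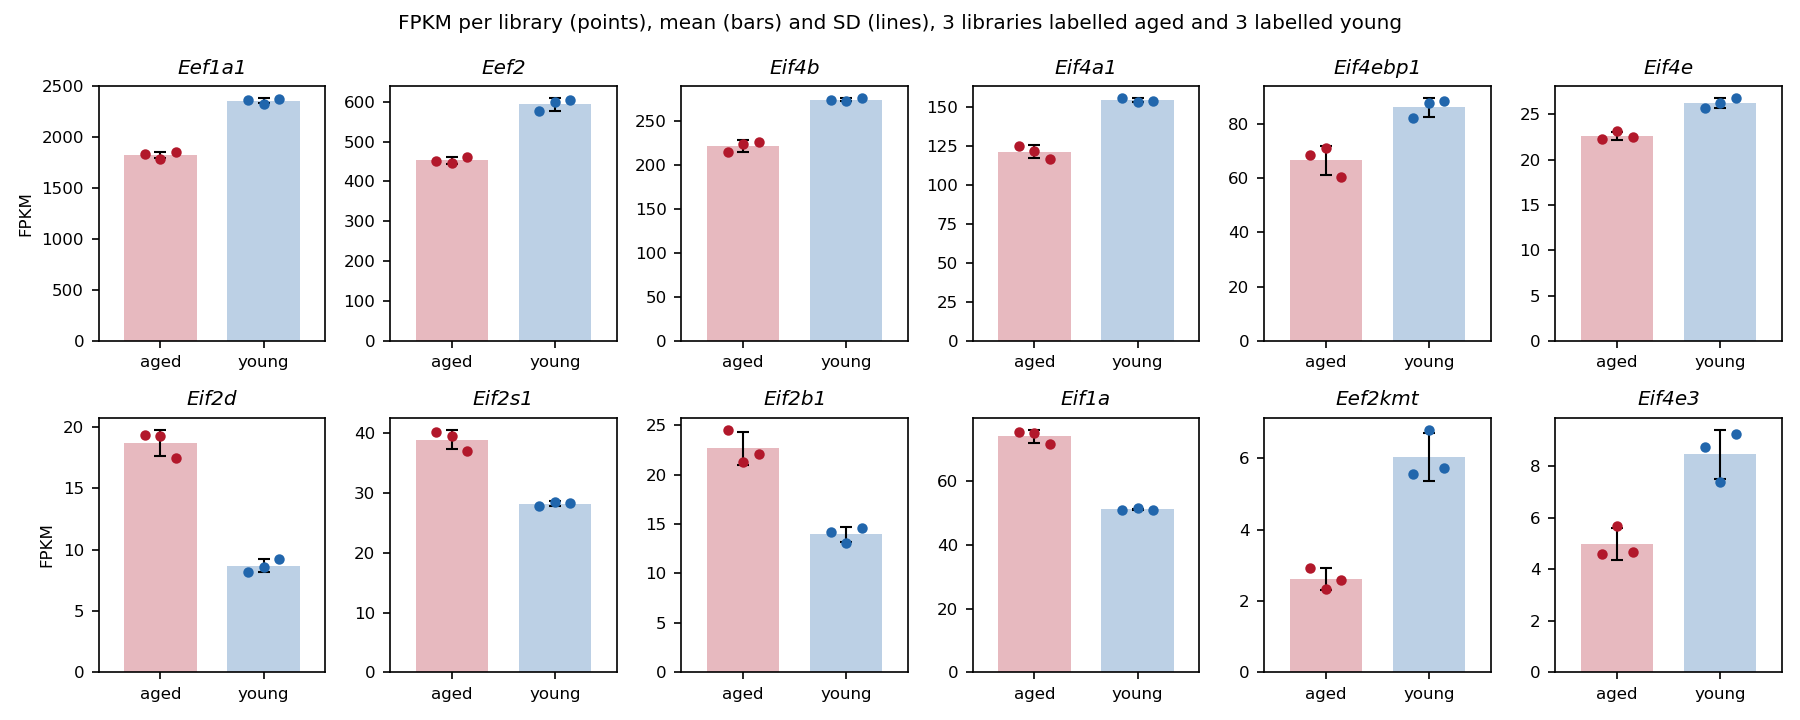
FPKM of 12 members in each library, with aged libraries left of young libraries, bars at the mean and lines for the SD (n = 3 each). The groups do not overlap in any panel. Eef1a1, Eef2, Eif4b, Eif4a1, Eif4ebp1, Eif4e, Eef2kmt and Eif4e3 are lower in aged libraries, and Eif2d, Eif2s1, Eif2b1 and Eif1a are higher.

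A run of pyrimidines at the start of an mRNA marks messages whose translation follows mTORC1, and CACGTG is the core letters that MYC and related factors bind. The windows came from RefSeq (GRCm38.p6), with 250 bases before and 50 after each annotated start, and 47 of 63 members matched. Shares of all genes with a window are given beside those of members, without matching for expression level. A tract of at least 7 letters, all C or T and beginning with C, starting from 10 bases before to 20 after the annotated start on the sense strand, was present in 15 of 47 members (31.9%), beside 18.5% of 27025 genes with a window. It was present in 7 of 15 members that fell, 6 of 17 that rose and 1 of 13 not called. These are 6 of them, chosen among the members with the tract to show both directions and one gene without a call, from 30 bases before to 25 after the start with the tract in capitals.
Eef1a1: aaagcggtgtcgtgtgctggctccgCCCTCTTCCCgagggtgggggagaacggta
Eef2: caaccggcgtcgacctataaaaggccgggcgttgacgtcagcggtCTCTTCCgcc
Eif3f: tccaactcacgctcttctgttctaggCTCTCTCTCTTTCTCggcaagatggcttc
Eif2s3x: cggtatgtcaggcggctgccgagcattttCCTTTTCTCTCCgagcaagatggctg
Eif3l: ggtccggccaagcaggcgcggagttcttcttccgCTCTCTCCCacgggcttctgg
Eif2b2: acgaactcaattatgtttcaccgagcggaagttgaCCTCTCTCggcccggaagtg
They lie at chr9:78481700-78481754 (minus strand), chr10:81176601-81176655 (plus), chr7:108934385-108934439 (plus), chrX:94212627-94212681 (minus), chr15:79075193-79075247 (plus) and chr12:85219451-85219505 (plus), in the order printed. Eef1a1 and Eef2 fell, Eif2s3x, Eif3l and Eif2b2 rose, and Eif3f was not called, so the tract stood in genes of each kind. The tract began 5 bases before the annotated start in Eef1a1 and at base 16 after it in Eef2. A match therefore need not be a run at the first base of an mRNA, and whether it is one was not tested.

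The letters CACGTG, which read the same on both strands, were found in 13 of 47 members (27.7%), beside 8.09% of all genes with a window. They were in 5 of 15 members that fell, 1 of 17 that rose and 6 of 13 not called, and no CACGTG overlapped a tract. Shown are the 5 members that fell and the 1 that rose, with 24 bases before the motif, or fewer where the window ended, and the motif in capitals.
Eef2: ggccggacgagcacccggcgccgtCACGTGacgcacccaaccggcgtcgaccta
Eef2k: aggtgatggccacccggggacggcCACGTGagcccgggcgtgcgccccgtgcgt
Eif4a1: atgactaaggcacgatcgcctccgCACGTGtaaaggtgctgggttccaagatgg
Eif4h: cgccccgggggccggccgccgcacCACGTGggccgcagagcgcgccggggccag
Eif4e: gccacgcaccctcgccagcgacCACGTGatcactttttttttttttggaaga
Eif3k: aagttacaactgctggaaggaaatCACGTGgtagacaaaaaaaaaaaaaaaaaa
They lie at chr10:81176564-81176617 (plus strand), chr7:120842776-120842829 (plus), chr11:69672583-69672636 (minus), chr5:134639476-134639529 (minus), chr3:138527018-138527069 (plus) and chr7:28981903-28981956 (minus), in the order printed. The first 5 fell in aged libraries and Eif3k rose. The letters TGATGCAA, searched on both strands as a common form of the ATF4 site, were in 0 of 47 members, beside 1.03% of all genes with a window. These matches describe letters in a window and are not evidence of binding. Whether the tract or CACGTG is more frequent in members than in genes of like level was not tested.

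The genes of eIF2, the carrier of the initiator tRNA, and 2 others that can deliver it were tested as 5 genes, of which 3 rose, 1 fell and 1 did not pass. Eif2s1, the alpha subunit that stress kinases phosphorylate, had 40.1, 39.5 and 37.0 FPKM in aged libraries, against 27.8, 28.5 and 28.3 FPKM in young libraries. The groups did not overlap, and the log2 fold change was 0.45 (SE 0.04, limma adjusted p = 0.0001). Eif2s3x, the gamma subunit that binds GTP and tRNA, rose by 0.36 to 50.8 ± 1.66 FPKM, against 39.4 ± 1.28 FPKM in young libraries (limma adjusted p = 0.000275). Eif2s2, the beta subunit, averaged 40.8 ± 1.71 FPKM in aged libraries and 43.1 ± 1.08 FPKM in young libraries and did not pass (limma adjusted p = 0.143). The 3 subunits of one complex thus did not share a call.

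Eif2d (chr1:131153181-131187658, plus strand, mm10) had 19.4, 19.3 and 17.5 FPKM in aged libraries, against 8.18, 8.63 and 9.25 FPKM in young libraries. It encodes a factor that can place initiator tRNA without eIF2 and takes part in ribosome recycling. The aged libraries stood at 2.16-fold the young mean, with a log2 fold change of 1.03 (SE 0.06, limma adjusted p = 1.97e-05), and it had the highest log2 fold change of the tested members. Eif2a, a separate factor that is not the alpha subunit of eIF2, fell by 0.24 to 9.26 ± 0.12 FPKM, against 11.1 ± 0.19 FPKM in young libraries (limma adjusted p = 0.00111).

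Among the 5 subunits of eIF2B, which reloads eIF2 with GTP, 2 rose, 2 fell and 1 did not pass. Eif2b1, the alpha regulatory subunit (chr5:124570213-124579131, minus strand, mm10), had 24.5, 21.3 and 22.1 FPKM in aged libraries, against 14.2, 13.1 and 14.6 FPKM in young libraries, without overlap. Its log2 fold change was 0.66 (SE 0.06, limma adjusted p = 0.000154). Eif2b2, the beta regulatory subunit, rose by 0.55 to 36.2 ± 2.81 FPKM, against 24.3 ± 2.17 FPKM in young libraries (limma adjusted p = 0.000864). The delta regulatory subunit Eif2b4 did not pass (12.3 ± 0.88 FPKM in aged and 13.5 ± 0.53 FPKM in young libraries, limma adjusted p = 0.102). The gamma and epsilon subunits, which form the catalytic part, were called lower. Eif2b3 had a log2 fold change of -0.27 (limma adjusted p = 0.00409) and Eif2b5 one of -0.13 (limma adjusted p = 0.016), a call lost without aged library 2 (limma adjusted p = 0.0572) or young library 3 (limma adjusted p = 0.0502). After median centring, which sets the median of each library equal, the value of Eif2b5 was -0.07 and the call was lost as well (limma adjusted p = 0.149).

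In the group of start codon recognition and GTP hydrolysis, 3 of 7 genes rose, 1 fell and 3 did not pass. Eif1a had 75.4, 75.1 and 71.6 FPKM in aged libraries, against 51.0, 51.4 and 50.9 FPKM in young libraries (log2 fold change 0.53, SE 0.03, limma adjusted p = 2.41e-05). It encodes eIF1A, which steadies the scanning ribosome. Eif1ax, the X-linked gene for nearly the same protein, ran the other way, at 24.4 ± 0.15 FPKM in aged libraries and 27.9 ± 0.97 FPKM in young libraries (log2 fold change -0.18, limma adjusted p = 0.00355, and -0.12 after median centring). The Eif1a to Eif1ax ratio was 3.11, 3.07 and 2.92 in aged libraries, against 1.81, 1.92 and 1.78 in young libraries. A further protein-coding gene, Gm8332, is 95.2% identical to Eif1a over 434 bases and averaged 12.7 FPKM in aged libraries and 3.86 FPKM in young libraries. The sources used here do not say how reads were split between such copies.

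Eif1ad, a nuclear protein with an eIF1A domain, had 30.1, 32.0 and 26.5 FPKM in aged libraries, against 16.3, 16.5 and 17.5 FPKM in young libraries. It rose by 0.78 (SE 0.07, limma adjusted p = 0.000117), and its lowest aged library was above the highest young one. Eif1ad (chr19:5366813-5371511, plus strand, mm10) shares 15.3% of its exon length with Banf1 on the other strand, and whether strand was used in counting is not given. Banf1 averaged 143 FPKM in aged libraries and 170 FPKM in young libraries. Eif1 itself, the start codon gatekeeper, averaged 160 ± 6.95 FPKM in aged libraries and 144 ± 3.06 FPKM in young libraries (log2 fold change 0.15, limma adjusted p = 0.0186), and it lost its call when aged library 1 or 2 or young library 1 or 2 was left out (limma adjusted p from 0.056 to 0.0609). Eif5, which triggers GTP hydrolysis by eIF2, and Eif5b, which joins the subunits, did not pass. Their log2 fold changes were -0.04 for Eif5 (limma adjusted p = 0.437) and -0.06 for Eif5b (limma adjusted p = 0.138).

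Of the 14 genes for subunits of eIF3, the scaffold on the small ribosomal subunit, 5 rose, 3 fell and 6 did not pass. Eif3b, part of the core that holds the complex together, had 122, 124 and 127 FPKM in aged libraries, against 97.6, 98.6 and 101 FPKM in young libraries. All aged libraries were higher, and the log2 fold change was 0.32 (limma adjusted p = 0.000155). Eif3g and Eif3i bind the same core subunit. Eif3g averaged 59.5 ± 3.94 FPKM in aged libraries and 43.8 ± 1.51 FPKM in young libraries and rose by 0.43 (limma adjusted p = 0.000539). Eif3i averaged 29.6 ± 1.77 FPKM in aged libraries and 39.6 ± 1.55 FPKM in young libraries and fell by 0.41 (limma adjusted p = 0.000576). Opposite calls thus stood within one module.

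The eIF3 subunits k and l, which bind each other at the edge of the complex, both rose. Eif3k had a log2 fold change of 0.41 (limma adjusted p = 0.000948) and Eif3l one of 0.28 (limma adjusted p = 0.000344). Eif3d, the cap-binding subunit, rose by 0.15 (limma adjusted p = 0.0223), a call lost without aged library 1 or 2 or young library 1 or 2 (limma adjusted p from 0.0643 to 0.0731). Eif3e fell by 0.23 (limma adjusted p = 0.000824). Eif3a, Eif3c, Eif3f, Eif3h and Eif3m did not pass, with log2 fold changes between -0.08 for Eif3h and -0.01 for Eif3m. Eif3j1, a loosely bound subunit, fell by 0.32 (limma adjusted p = 0.011), and 19.0% of its exon length overlaps Spg11 on the other strand. Spg11 held 4990 reads, 147% of the number on Eif3j1, and averaged 5.49 FPKM in aged libraries and 6.54 FPKM in young libraries, in the same direction as Eif3j1. The call of Eif3j1 was lost without young libraries 1 and 3 (-0.22, limma adjusted p = 0.201). Its near copy Eif3j2 had 7.75, 10.7 and 6.36 FPKM in aged libraries, against 8.71, 8.38 and 8.38 FPKM in young libraries, and did not pass.

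At the cap, 4 of the 9 genes for cap binding, scaffolds and helicase cofactors fell, 2 rose, 2 did not pass and 1 was not tested. Eif4e, the cap-binding protein itself, had 22.3, 23.1 and 22.5 FPKM in aged libraries, against 25.7, 26.2 and 26.8 FPKM in young libraries. It fell by 0.20 (SE 0.03, limma adjusted p = 0.00157). Eif4e3, a cap-binding paralog, had 4.60, 5.70 and 4.67 FPKM in aged libraries, against 8.75, 7.40 and 9.24 FPKM in young libraries, a log2 fold change of -0.66 (SE 0.10, limma adjusted p = 0.00126). Eif4e2, a paralog that mostly represses bound mRNAs, rose by 0.14 (limma adjusted p = 0.0131). The oocyte paralog Eif4e1b had 21 reads in aged libraries and 8 in young ones and was not tested.

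Eif4b, a cofactor of the helicase eIF4A, had 214, 223 and 226 FPKM in aged libraries, against 273, 273 and 276 FPKM in young libraries. It fell by 0.31 (SE 0.03, limma adjusted p = 0.00031), and the related Eif4h fell by 0.23 (limma adjusted p = 0.000454). After quantile normalization the log2 fold change of Eif4b was -0.20 (limma adjusted p = 0.0108). Of the scaffolds, Eif4g3 rose by 0.20 (limma adjusted p = 0.00572). Eif4g1 averaged 101 ± 3.35 FPKM in aged libraries and 102 ± 1.86 FPKM in young libraries, and Eif4g2, a scaffold without the cap-binding site, averaged 91.9 ± 0.28 FPKM in aged libraries and 88.9 ± 3.86 FPKM in young libraries. Neither passed the test (limma adjusted p = 0.854 for Eif4g1 and 0.311 for Eif4g2), and Eif4g2 was called higher after median centring alone (0.11).

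Both eIF4A helicases of translation fell. Eif4a1 had 125, 122 and 117 FPKM in aged libraries, against 156, 153 and 153 FPKM in young libraries, a log2 fold change of -0.35 (SE 0.03, limma adjusted p = 0.000193). Eif4a2 fell by 0.26 to 40.1 ± 0.89 FPKM, against 48.2 ± 0.24 FPKM in young libraries (limma adjusted p = 0.000344). The processed pseudogene Eif4a-ps4 is 99.9% identical to Eif4a1 and held 13054 reads, 21.2% of the number on Eif4a1 itself. It averaged 90.1 FPKM in aged libraries and 118 FPKM in young libraries. Eif4a3, the helicase of the exon junction complex, had a log2 fold change of 0.09 (limma adjusted p = 0.0385) and lost its call when any library other than aged library 3 was left out (limma adjusted p from 0.0604 to 0.125). The call of Eif4a3 was also lost after quantile normalization (0.06, limma adjusted p = 0.115), without letting the variance follow the level, with the replicate number as a block and with limma-voom on read numbers recovered from the FPKM (limma adjusted p from 0.0833 to 0.106), whereas its value was 0.15 after median centring.

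The eIF4E repressors held 2 genes that fell and 2 that did not pass. Eif4ebp1, the repressor that mTORC1 switches off, had 68.3, 70.8 and 60.4 FPKM in aged libraries, against 82.0, 87.5 and 88.2 FPKM in young libraries. The groups did not overlap, and it fell by 0.37 (SE 0.06, limma adjusted p = 0.00238). Eif4ebp2 averaged 37.9 ± 2.20 FPKM in aged libraries and 40.3 ± 0.86 FPKM in young libraries and did not pass (limma adjusted p = 0.138), but it was called lower without aged library 3 (log2 fold change -0.13, limma adjusted p = 0.0195). Eif4ebp3 had 26 reads in aged libraries and 32 in young ones, a depth at which no difference was detectable. Eif4enif1, which carries eIF4E to the nucleus and to silenced mRNPs, fell by 0.26 (limma adjusted p = 0.00346).

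Eif5a, which carries the modified amino acid hypusine and frees stalled ribosomes, had 303, 308 and 268 FPKM in aged libraries, against 266, 269 and 290 FPKM in young libraries. The groups overlapped, and it did not pass (log2 fold change 0.09, limma adjusted p = 0.281), but it was called higher without aged library 3 (0.15, limma adjusted p = 0.0394) and after quantile normalization (0.25). Its paralog Eif5a2 had 30 reads in aged libraries and 29 in young ones and was not tested. Eif6, which keeps the large subunit apart until it matures, rose by 0.25 to 67.2 ± 3.46 FPKM, against 56.3 ± 2.16 FPKM in young libraries (limma adjusted p = 0.00383).

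Ratios within a library do not depend on how libraries were scaled, and 10 pairs of paralogs or of a factor and its repressor had at least 30 reads of each gene in every library. The groups did not overlap for 7 of the 10 pairs, beside 66.9% of all tested genes and 74.05% of tested protein-coding genes taken singly. The count is thus not read as a result about the pairs. The ratio of Eif4e to Eif4e2 was 1.35 ± 0.049 in aged libraries and 1.73 ± 0.033 in young libraries. The ratio of Eif4e to Eif4e3 was 4.58 ± 0.45 in aged libraries and 3.13 ± 0.36 in young libraries, so Eif4e stood lower against the one paralog and higher against the other. The ratio of Eif4g1 to Eif4g3 was 5.61 ± 0.12 in aged libraries and 6.53 ± 0.15 in young libraries.

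Eif4ebp1 over Eif4ebp2 was 1.77 ± 0.24 in aged libraries and 2.13 ± 0.040 in young libraries. Eif4e over its repressor Eif4ebp1 was 0.327, 0.327 and 0.372 in aged libraries, against 0.314, 0.300 and 0.304 in young libraries. The lowest aged ratio was above the highest young ratio by less than the spread among aged libraries. Eif4a1 over Eif4a2 was 3.02 ± 0.13 in aged libraries and 3.19 ± 0.017 in young libraries. The groups overlapped for Eif1 over Eif1b, Eif4g1 over Eif4g2 and Eif3j1 over Eif3j2. These ratios are given without a test.

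**Figure D3:**
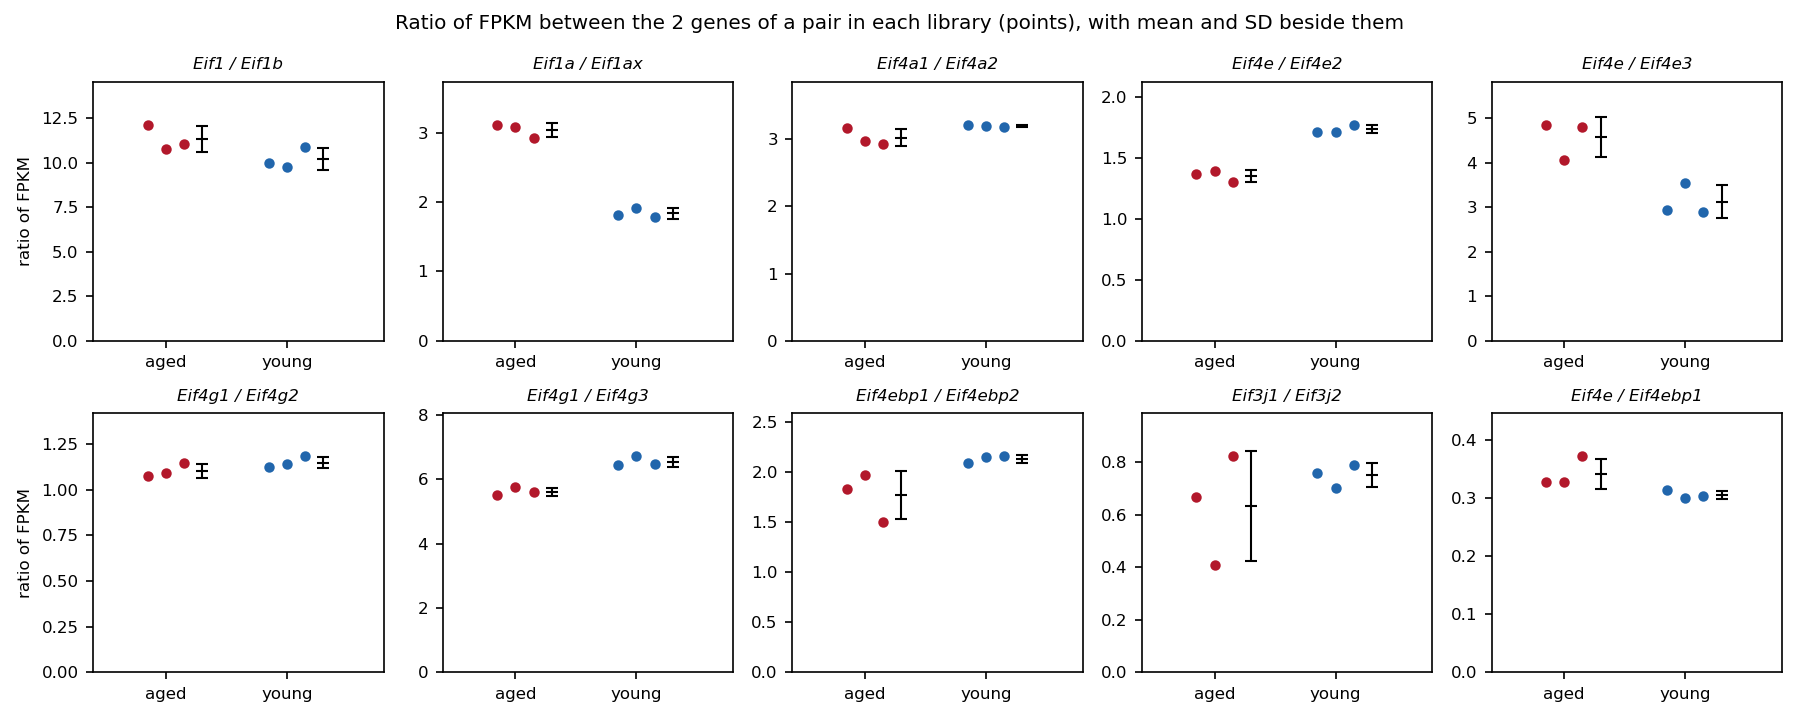
Ratio of FPKM between the genes of 10 pairs in each library, as points, with the mean and SD beside them (n = 3 each) and aged libraries left of young libraries. On the log2 scale Eif1a over Eif1ax shows the largest difference between group means (0.73), at 3.04 ± 0.10 in aged and 1.84 ± 0.075 in young libraries, and Eif3j1 over Eif3j2 shows overlap.

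Several members have processed pseudogenes that the table counts as rows of their own. Gm4366 is 99.6% identical to Eef1g and held 23666 reads, 40.1% of the number on Eef1g. It averaged 154 FPKM in aged libraries and 188 FPKM in young libraries, in the same direction as Eef1g. Gm9892 is 99.5% identical to Eif2s2 and held 9.03% of the number on it, and the 8 rows similar to Eef1a1 together held 2.76%. All 42 calls were kept when reads of such rows were added to their members.

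The genes that control or work beside the factors were read from the same test. Of 88 such genes in 9 lists, all were tested, 33 rose, 29 fell and 26 did not pass. The share called was 70.45%, beside 60.0% of all tested genes and 66.7% of tested protein-coding genes. The count of calls was thus near the background, and the counts of each list below are to be read beside these shares. Among the eIF2 kinases, Eif2ak1, the heme-regulated kinase, rose by 0.30 to 12.4 ± 0.23 FPKM, against 9.90 ± 0.15 FPKM in young libraries (limma adjusted p = 0.000391). Eif2ak4, the sensor of uncharged tRNA, had 3.07, 2.29 and 2.97 FPKM in aged libraries, against 4.98, 4.83 and 5.36 FPKM in young libraries (log2 fold change -0.69, limma adjusted p = 0.000728). Eif2ak2, the kinase activated by double-stranded RNA, fell by 0.17 (limma adjusted p = 0.0271), a call lost without aged library 1 or 2 or young library 1 or 2 (limma adjusted p from 0.0653 to 0.0816), and Eif2ak3 did not pass. The call of Eif2ak2 was also lost after median centring (-0.11, limma adjusted p = 0.121), after rescaling to TPM (-0.15, limma adjusted p = 0.0837), without the filter on low values (limma adjusted p = 0.0632) and with the replicate block (limma adjusted p = 0.0777). Of the 5 genes of the eIF2 phosphatase, 4 fell, among them the catalytic Ppp1cb (-0.42, limma adjusted p = 0.000141), Ppp1cc (-0.24) and the constitutive adaptor Ppp1r15b (-0.33), and the inducible adaptor Ppp1r15a rose by 0.26 (limma adjusted p = 0.0306). The call of Ppp1r15a was lost without any 1 aged library or young library 2 (limma adjusted p from 0.0555 to 0.0831), and without the filter on low values (limma adjusted p = 0.0748); without young library 1 its value was 0.17.

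Of 18 genes of mTORC1 and its inputs to translation, 4 rose, 8 fell and 6 did not pass. Sesn2, a stress-induced inhibitor of mTORC1, had 28.2, 28.2 and 29.7 FPKM in aged libraries, against 11.0, 10.2 and 10.4 FPKM in young libraries. Its log2 fold change was 1.37 (SE 0.04, limma adjusted p = 2.73e-06). Ddit4, another stress-induced inhibitor, fell by 0.66 to 20.8 ± 1.26 FPKM, against 33.5 ± 1.15 FPKM in young libraries (limma adjusted p = 6.14e-05). Pdcd4, which holds eIF4A inactive, had 6.26, 6.25 and 7.06 FPKM in aged libraries, against 14.9, 15.5 and 16.6 FPKM in young libraries (log2 fold change -1.15, limma adjusted p = 1.50e-05). The mRNAs of the helicases Eif4a1 and Eif4a2 and of this inhibitor were all lower. Mtor itself did not pass (limma adjusted p = 0.112).

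Of 22 genes of cytosolic aminoacyl-tRNA synthetases and their scaffold proteins, 11 rose, 5 fell and 6 did not pass. Wars, which charges tryptophan, rose by 0.93 to 39.6 ± 0.27 FPKM, against 20.4 ± 1.24 FPKM in young libraries (limma adjusted p = 1.17e-05). Rars, for arginine, rose by 0.84 (limma adjusted p = 3.26e-05). Mars, for methionine, which also charges the initiator tRNA that eIF2 carries, had 25.1, 25.7 and 23.9 FPKM in aged libraries, against 47.0, 46.0 and 46.3 FPKM in young libraries. It fell by 0.87 (limma adjusted p = 6.61e-06).

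Of 9 genes that make the modified residues diphthamide on eEF2 and hypusine on eIF5A, 2 rose, 3 fell and 4 did not pass. Dph2, an early diphthamide enzyme, rose by 0.85 to 12.1 ± 0.18 FPKM, against 6.25 ± 0.31 FPKM in young libraries (limma adjusted p = 1.48e-05). Dph6, the last enzyme of that pathway, fell by 0.35 (limma adjusted p = 0.00246), and Dhps, the hypusine synthase, fell by 0.17 (limma adjusted p = 0.024), a call lost without aged library 3 or young library 2 or 3 (limma adjusted p from 0.0549 to 0.0803). The call of Dhps was also lost after median centring (-0.11, limma adjusted p = 0.115), after quantile normalization (-0.12, limma adjusted p = 0.0806) and with the replicate block (limma adjusted p = 0.0529). Of 9 other initiation genes 4 rose, 2 fell and 3 did not pass. Bzw2, a regulator that mimics eIF5, fell by 0.75 (limma adjusted p = 2.47e-05), and the scanning helicase Dhx29 (0.30) and the Eif2ak4 partner Gcn1l1 (0.28) rose.

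Of 5 genes of poly(A)-binding proteins and their partners, 3 rose and 2 did not pass. Pabpc4 rose by 0.52 (limma adjusted p = 1.91e-05), and Paip2b (0.45), an inhibitor, and Paip1 (0.15), a stimulator, rose as well. Of 6 genes of termination and recycling 4 rose, 1 fell and 1 did not pass, with Etf1, which reads stop codons, at 0.25 (limma adjusted p = 0.00262), Hbs1l, a rescue factor, at 0.21 and Gspt2, a release factor GTPase, at -0.32. Of 10 mitochondrial translation factors 3 rose, 4 fell and 3 did not pass. Tufm, the mitochondrial counterpart of eEF1A, fell by 0.52 to 29.5 ± 2.31 FPKM, against 42.6 ± 0.68 FPKM in young libraries (limma adjusted p = 0.000289). Gfm1, the mitochondrial counterpart of eEF2, rose by 0.25 (limma adjusted p = 0.0137), and the release factor gene Mtrf1l fell by 0.30.

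**Figure D4:**
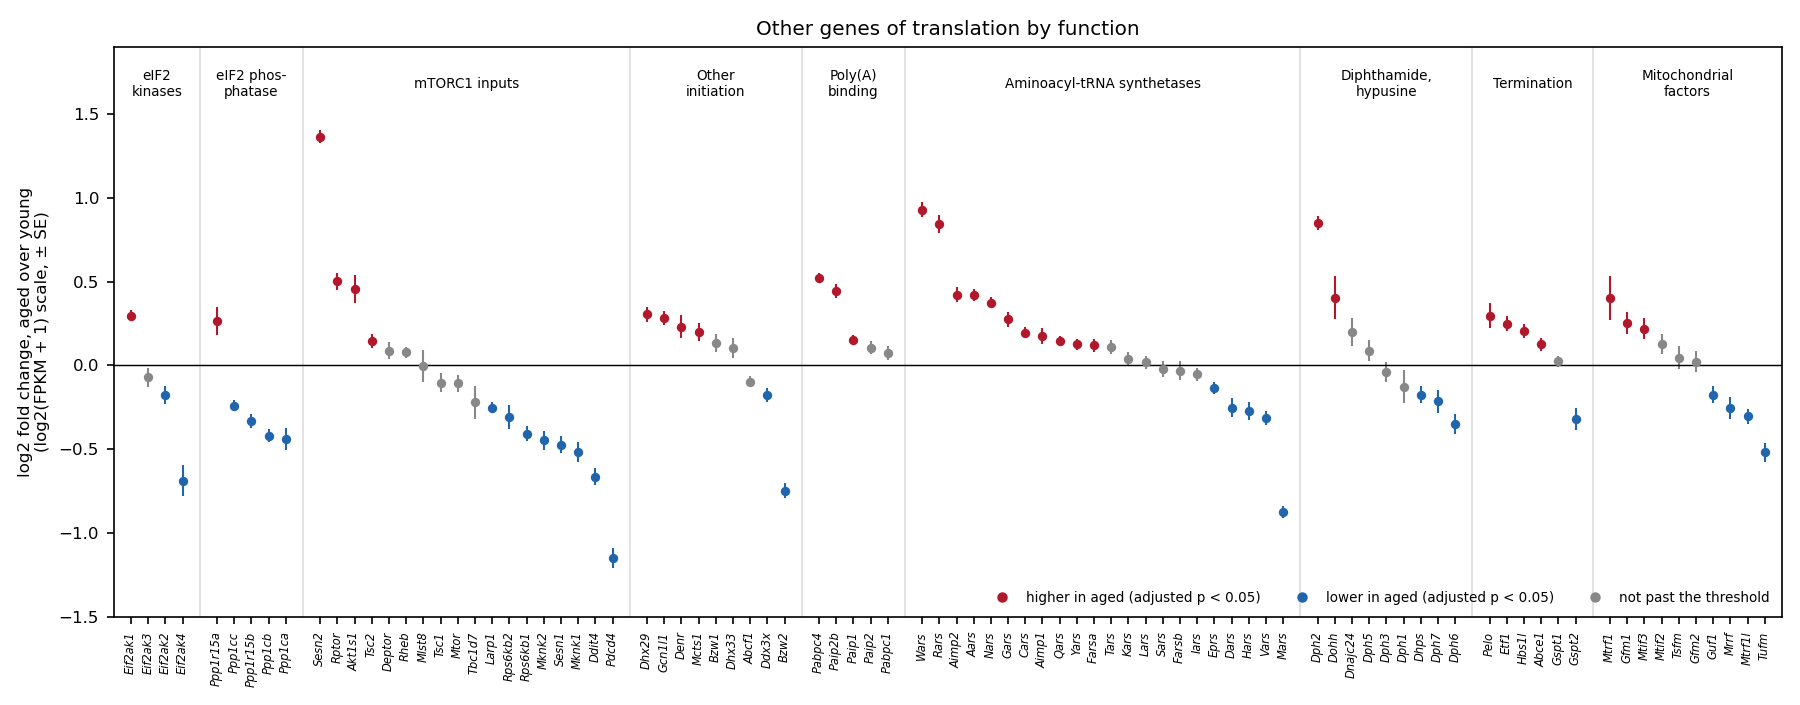
Log2 fold change of aged over young libraries, on the log2(FPKM + 1) scale with its standard error, for 88 other genes of translation in 9 lists. Red points rose, blue points fell and grey points did not pass the threshold of 0.05. Sesn2 (1.37) and Pdcd4 (-1.15) are the extremes, and each list except that of poly(A)-binding proteins holds points of both colours.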

How the data were processed

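RNA-seq read pairs were aligned with HISAT2 2.0.5 to mm10, per the submitters' processing notes. The sources used here give no kit, read selection, gene counter, annotation or strand setting. The authors deposited 1 table of FPKM per gene. Values times gene length were whole multiples of 1 step per library for 100% of values within a tolerance of 0.01, giving 16649061 to 17456715 reads per library, and 3 reads on 1 kilobase correspond to 0.173 to 0.177 FPKM. This floor covers counting error only, whereas the standard errors given come from the limma fit and measure the spread between libraries.

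From the deposited FPKM, log2(FPKM + 1) was compared between the libraries labelled aged and young with limma 3.58.1 in R 4.3.3, using empirical Bayes with a trend, 2-sided tests and Benjamini-Hochberg adjustment over 15197 genes. This scale understates changes of low genes. Each library was counted as 1 sample. Chi-square per degree of freedom was 2.25 to 4.93 within and 76.8 to 81.6 between groups, which cannot show whether libraries of a group came from separate animals. The code was tested on simulated data.

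Members, roles, pairs and lists were chosen with earlier results of these data known. The text names up to 12 called members in each direction with at least 1 FPKM and no overlap, the 6 most abundant, all paralogs, all untested members and up to 3 genes per list, the others after seeing their values. Overlaps and pseudogenes came from GENCODE M21, which places 60 of 63 members as the table does. Alternatives covered the pseudocount, filter, scaling, trend, gene class, replicate block, single libraries left out and voom on recovered reads. Leaving out both libraries with kidney transcripts and adding pseudogene reads were chosen after seeing the data.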

Additional observations from a re-analysis of the deposited data

How the results depend on the processing

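Of the 42 members called, 29 kept their call under all 19 alternatives and 13 lost it under at least 1, while no called member changed sign. Eef1akmt1, Eif1, Eif3d and Eif4a3 lost it when any of several single libraries was left out. Eif1 and Eif3d also lost it with the replicate block (limma adjusted p = 0.0603 and 0.0664). The members counted as higher and lower ranged from 16 to 21 and from 21 to 23 with 1 library left out. All tested genes ranged from 3764 to 4030 higher and from 4363 to 4678 lower, and the other genes of translation from 26 to 32 higher and from 25 to 28 lower. The log2 ratio of the members' summed FPKM was -0.16, between -0.17 and -0.16 with 1 library left out, and -0.14 after rescaling to TPM. Without both young libraries that held kidney transcripts, which leaves 1 young library assumed to vary like the aged ones, 14 members were higher and 17 lower, 31 of 42 calls were kept, and 20 other genes of translation were higher, against 33 with all libraries. Among the other genes named, Dhps, Dph6, Eif2ak2, Hbs1l and Paip1 lost their calls there too.

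No pairing by replicate number was visible. Deviations of same-numbered libraries correlated at 0.0056, -0.0079 and 0.019, beside -0.0402 to 0.036 for libraries of different number. With 3 libraries per group this cannot show that there was no pairing. With the replicate number as a block, 16 members were higher and 22 lower, all genes higher numbered 3927 and all genes lower 4514.

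Signs turned in 12 members and in Eif2ak3, none of them called under the settings named here, and the cause was not tested. With median centring the log2 fold changes were 0.0575 for Eif4g1, 0.0645 for Eif1b, 0.00378 for Eif3j2, 0.0516 for Eif3m, 0.0389 for Eif3a, 0.0279 for Eif3f, 0.0112 for Eif3c, 0.0359 for Eef1akmt4, 0.0228 for Eif5 and 0.00396 for Eif5b. In TPM they were 0.0189 for Eif4g1, 0.0254 for Eif1b, 0.0126 for Eif3m and 0.000177 for Eif3a, and with quantile normalization 0.0265 for Eif1b and 0.00484 for Eif3c. Without the kidney libraries they were 0.000608 for Eif4g1, 0.112 for Eif4ebp3, 0.0436 for Eif3m and 0.0403 for Eif2ak3. With 1 library left out they ran from -0.0345 to 0.0106 for Eif4g1, from -0.0385 to 0.0262 for Eif1b, from -0.244 to 0.00199 for Eif4ebp3, from -0.242 to 0.0901 for Eif3j2, from -0.0432 to 0.00234 for Eif3m, from -0.0714 to 0.014 for Eif3f, from -0.00726 to 0.28 for Eef1akmt3 and from -0.166 to 0.0403 for Eef1akmt4. With median centring, all genes higher numbered 4988 and all genes lower 4026, against 4212 and 4903 as deposited.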
